A study of Homo sapiens with 27 samples.

Results

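The genes described here are 50 interferon-stimulated effector genes, the genes whose products carry out the antiviral state of a cell, followed across TLE3 and FOXA1 silencing in 3 human breast cancer cell lines. They were taken by gene symbol, and all 50 of them are among the 32719 genes listed in at least 1 of the 6 deposited tables. A cell that detects foreign nucleic acid secretes type I and type III interferons, which bind receptors on the same and on neighbouring cells and activate the kinases JAK1 and TYK2. Their signal assembles a transcription factor complex that contains IRF9. That complex binds interferon-stimulated response elements (ISREs) in promoters and switches on a shared set of effector genes, and transfected double-stranded RNA is one of the triggers known to start this response in cultured cells.

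RNA was sequenced 48 h after reverse transfection with a pool of siRNAs against TLE3 (siTLE3), a pool of siRNAs against FOXA1 (siFOXA1) or a non-targeting siRNA (siNS). TLE3 is a transcriptional corepressor without a DNA-binding domain of its own, and FOXA1 is a forkhead transcription factor that opens chromatin in luminal breast cells. The 3 lines are established cell lines: T47D, a luminal line that expresses the estrogen receptor; SKBR3, in which ERBB2 is amplified; and MDA-MB-453, which expresses the androgen receptor. Each of the 9 groups has 3 libraries (27 in all), and the cells of every group were transfected, so that none of the groups used here shows the level of these genes without transfection. Each target has only its own pool, and the control is another siRNA. Loss of the target and any other response to its pool therefore cannot be told apart here. Libraries are named by the number in their column: T47D siTLE3 has 1, 3 and 4, T47D siNS has 2, 3 and 4, MDA-MB-453 siNS has 1, 2 and 4, and the other 6 groups have 1, 2 and 3. Values of 3 libraries are given in that order. The labels call the replicates biological without saying whether cultures or days were separate. The p-values set a difference between groups against the variation between these libraries. Whether that variation covers separate cultures or days is not known. In bulk RNA, fewer cells with a transcript and less of it per cell cannot be told apart.

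Reads counted in genes numbered 15968223 to 26208135 per library. Levels are given as CPM, that is, reads per 1000000 counted reads after scaling with trimmed-mean (TMM) factors. TLE3 fell in siTLE3 cells, with log2 fold changes over siNS of -1.81 (T47D), -1.76 (SKBR3) and -2.31 (MDA-MB-453), and FOXA1 fell in siFOXA1 cells, with -2.18, -2.24 and -2.48 in the same lines (largest edgeR adjusted p 0.0031). TLE3 also averaged 85.5 CPM in siFOXA1 and 148.3 CPM in siNS libraries of MDA-MB-453. In T47D these means were 149.8 and 127.8 CPM, and in SKBR3 123.6 and 118.6 CPM. FOXA1 averaged 532.6 CPM in siTLE3 and 366.1 CPM in siNS libraries of T47D. Its means were 539.7 and 410.9 CPM in SKBR3 and 766.5 and 743.9 CPM in MDA-MB-453. The part of these differences in the results was not tested. The epithelial keratin KRT8 averaged 8653, 6260 and 1368 CPM in siNS cells of T47D, SKBR3 and MDA-MB-453, while the leukocyte gene PTPRC averaged 0.0607 CPM or less and the fibroblast gene DCN 0.114 CPM or less in siNS cells of the lines that list them. Markers of other cell types were not all low: the endothelial cadherin CDH5 averaged 17.9 CPM in siTLE3 cells, 10.6 CPM in siFOXA1 cells and 7.1 CPM in siNS cells of SKBR3, the endothelial VWF 1.06, 0.85 and 4.33 CPM in the same groups, and the neural adhesion gene NCAM1 4.97 CPM in MDA-MB-453 siNS cells. Their part in the results was not tested. ESR1 averaged 125 CPM in T47D siNS cells and ERBB2 7957 CPM in SKBR3 siNS cells. Of the defining markers of the labelled lines, the epithelial cadherin CDH1 was near 0 in SKBR3 siNS cells (0.444 CPM), and the collagen gene COL1A1, listed as a stromal marker, was not low in any line (27 to 164 CPM in siNS cells).

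Promoters of 30 of the 41 genes whose windows were read held letters like those of the ISRE. Promoter windows from RefSeq (build GRCh38.p14), from 250 bases before to 50 bases after a transcription start, were matched by symbol for 41 of the 50 genes, in 57 windows of 300 bases. An ISRE-like match was defined as the letters GAAANNGAAA on either strand, where N is any base. The 8 stretches below, each a match with 15 bases on either side, belong to the gene with the highest mean level of each functional group that had one and are shown so that the bases around the fixed letters can be compared. They are written 5′ to 3′ on the strand of the gene, with the coordinates in GRCh38.p14 and the matched letters in capitals.
OAS3 (chr12:112938447-112938486, plus strand): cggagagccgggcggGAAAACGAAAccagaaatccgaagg
MX1 (chr21:41420554-41420593, plus strand): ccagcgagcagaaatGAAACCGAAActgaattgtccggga
IFIT1 (chr10:89392505-89392544, plus strand): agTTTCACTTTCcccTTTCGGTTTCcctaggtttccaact
IFI6 (chr1:27672261-27672300, minus strand): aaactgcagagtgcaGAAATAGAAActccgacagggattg
ISG15 (chr1:1013375-1013414, plus strand): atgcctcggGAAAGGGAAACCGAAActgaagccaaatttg
DDX60 (chr4:168318781-168318820, minus strand): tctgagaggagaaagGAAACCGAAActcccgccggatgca
PARP14 (chr3:122680795-122680834, plus strand): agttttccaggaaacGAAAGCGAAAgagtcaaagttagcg
LGALS3BP (chr17:78979957-78979996, minus strand): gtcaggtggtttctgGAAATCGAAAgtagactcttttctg

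In IFIT1 both matches were on the opposite strand. In ISG15 a pair of matches overlapped and fused into a longer run. The whole ISG15 window is printed to show where the site lies in it (chr1:1013247-1013546, plus strand), 107 bases before the start.
ISG15 promoter: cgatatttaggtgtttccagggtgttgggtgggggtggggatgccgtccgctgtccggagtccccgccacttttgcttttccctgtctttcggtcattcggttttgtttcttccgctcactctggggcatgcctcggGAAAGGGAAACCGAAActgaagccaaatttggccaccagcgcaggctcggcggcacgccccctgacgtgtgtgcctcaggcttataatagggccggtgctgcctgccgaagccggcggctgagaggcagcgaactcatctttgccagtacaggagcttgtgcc
ISRE-like letters were in 35 of the 57 windows (61.4%) and in 30 of the 41 genes (73.2%), against 1255 of all 35116 promoter windows (3.57%). A match to TTCNNNGAA, the form bound by STAT dimers (GAS-like), was in 13 windows (22.8%), against 2689 of all windows (7.66%). Counted per window, 6 of its 14 matches overlapped an ISRE-like match. Windows of IFI27 overlap each other, as do those of PLSCR1, so their GAS-like sites enter that count more than once. The ISRE-like sites of IFI27, PLSCR1 and IFI44, whose windows also overlap, enter the count of 35 windows more than once. The windows of PARP9 and DTX3L overlap as well and share an ISRE-like site. The forkhead letters TGTTTAC were in 3 windows (5.26%), those of CMPK2, SAMD9L and SP100, against 1202 of all windows (3.42%). No ISRE-like letters were in the windows of OAS1, IFI35, CMPK2, HERC6, UBE2L6, XAF1, SAMD9L, SP100, SP110, TRIM25 or ADAR. A match describes letters in the window and no more, and OAS2, OASL, MX2, IFIT2, IFITM2, USP18, PARP10, TRIM22 and LAMP3 had no window.

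**Figure D1:**
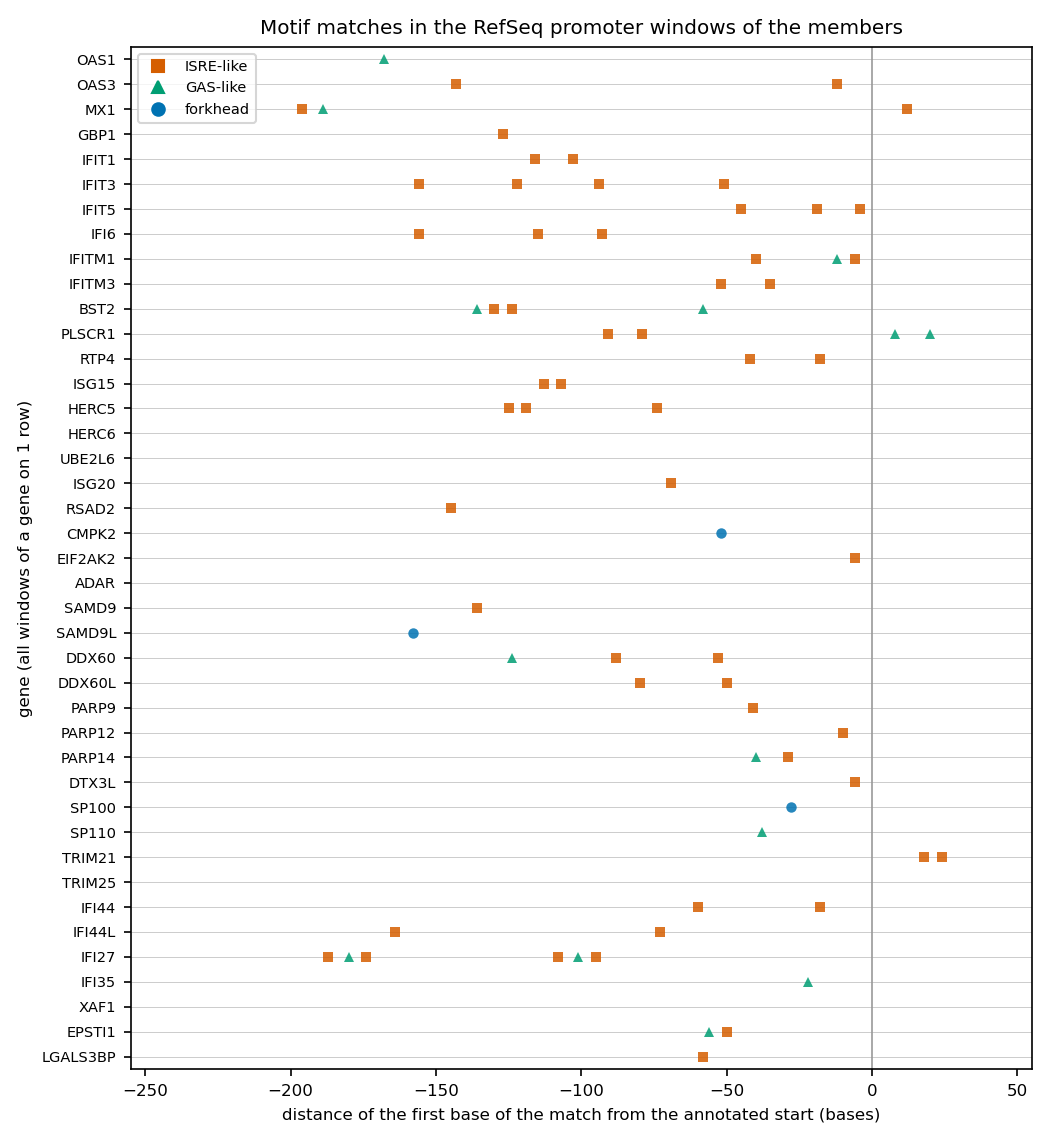
Matches in the promoter windows of 41 interferon-stimulated genes, by distance in bases from the transcription start (x axis) and gene (y axis). Squares are ISRE-like matches, triangles GAS-like matches and circles forkhead matches; ISRE-like matches appear in 30 of the 41 genes.

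In control cells the genes were expressed in T47D and MDA-MB-453 and were near the floor in SKBR3. Of the 50 genes, 49 averaged at least 10 CPM in T47D siNS cells, 8 in SKBR3 siNS cells and 44 in MDA-MB-453 siNS cells, and the median of the means, over the genes listed for each line, was 129, 0.593 and 191 CPM. Between T47D and SKBR3 siNS cells, 48 of 49 genes tested were higher in T47D and 1 was lower (67.3% of all genes tested differed between these lines, 34.7% of all being higher in T47D). The median log2 fold change was 8.002, the same with genes at 3 reads or fewer in SKBR3 set to their ratio or bound. The ratios or bounds of these 7 genes all lay above that median (9.12 to 10.9), so its sameness says little about the floor. SKBR3 siNS cells were lower than MDA-MB-453 siNS cells for 43 of 47 genes tested, and no gene was higher (66.4% of all genes tested differed, 32.9% of all being lower in SKBR3). The median log2 fold change there was -8.06, and -8.36 with the same replacement. T47D siNS cells were higher than MDA-MB-453 siNS cells for 11 and lower for 25 of 49 genes tested (76.4% of all genes tested differed, 38.9% higher and 37.5% lower), with a median log2 fold change of -0.45.

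LAMP3, a lysosomal membrane glycoprotein, had 4922 reads over the T47D siNS libraries and 0 reads over the SKBR3 siNS libraries. Counting 3 reads over the SKBR3 group as the floor, it was at least 1720-fold higher in T47D siNS cells. The gene was not listed for MDA-MB-453. HERC5, the ligase that attaches ISG15 to proteins, had 3 reads over the SKBR3 siNS libraries and 13884 over the MDA-MB-453 siNS libraries, a depth-adjusted ratio of MDA-MB-453 over SKBR3 of 4760, with a 95% counting interval of 1630 to 23100. MX1 had 1611, 918 and 1980.5 CPM in the siNS libraries of T47D, 0.320, 0.583 and 0.436 CPM in those of SKBR3 and 337, 404 and 400.4 CPM in those of MDA-MB-453. The 3 lines did not overlap for MX1, a dynamin-like GTPase that blocks incoming viruses (log2 fold change 1.96, SE 0.20, adjusted p = 7.77e-07 for T47D against MDA-MB-453). ISG20, an exonuclease that degrades RNA, was the exception in SKBR3, with 13.6, 7.26 and 16.6 CPM in T47D siNS libraries against 33.9, 37.7 and 57.96 CPM in SKBR3 siNS libraries (log2 fold change -1.77, SE 0.31, adjusted p = 0.0011). The 8 genes at 10 CPM or more in SKBR3 siNS cells included ADAR, LGALS3BP, TRIM25, ISG20 and EIF2AK2, which together held 91.8% of the summed level of the 50 genes there.

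Per kilobase of exon, the highest genes in siNS cells were IFI6 (1544 CPM per kb), ISG15 (743) and BST2 (618) in T47D, and ISG15 (4040), IFI6 (3423) and BST2 (895) in MDA-MB-453. In SKBR3 siNS cells ADAR (104) and LGALS3BP (62.4) led on that scale. The largest differences between T47D and MDA-MB-453 siNS cells were in EPSTI1, a gene linked to epithelial-stromal interaction (log2 fold change 6.09), IFI35 (6.16) and SAMD9L, a restriction factor for poxviruses (4.23), all higher in T47D (adjusted p = 1.43e-07, 1.58e-09 and 6.56e-08). IFI35 had 96.7, 57.4 and 126 CPM in T47D siNS libraries against 1.41, 0.460 and 2.02 CPM in MDA-MB-453 siNS libraries.

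**Figure D2:**
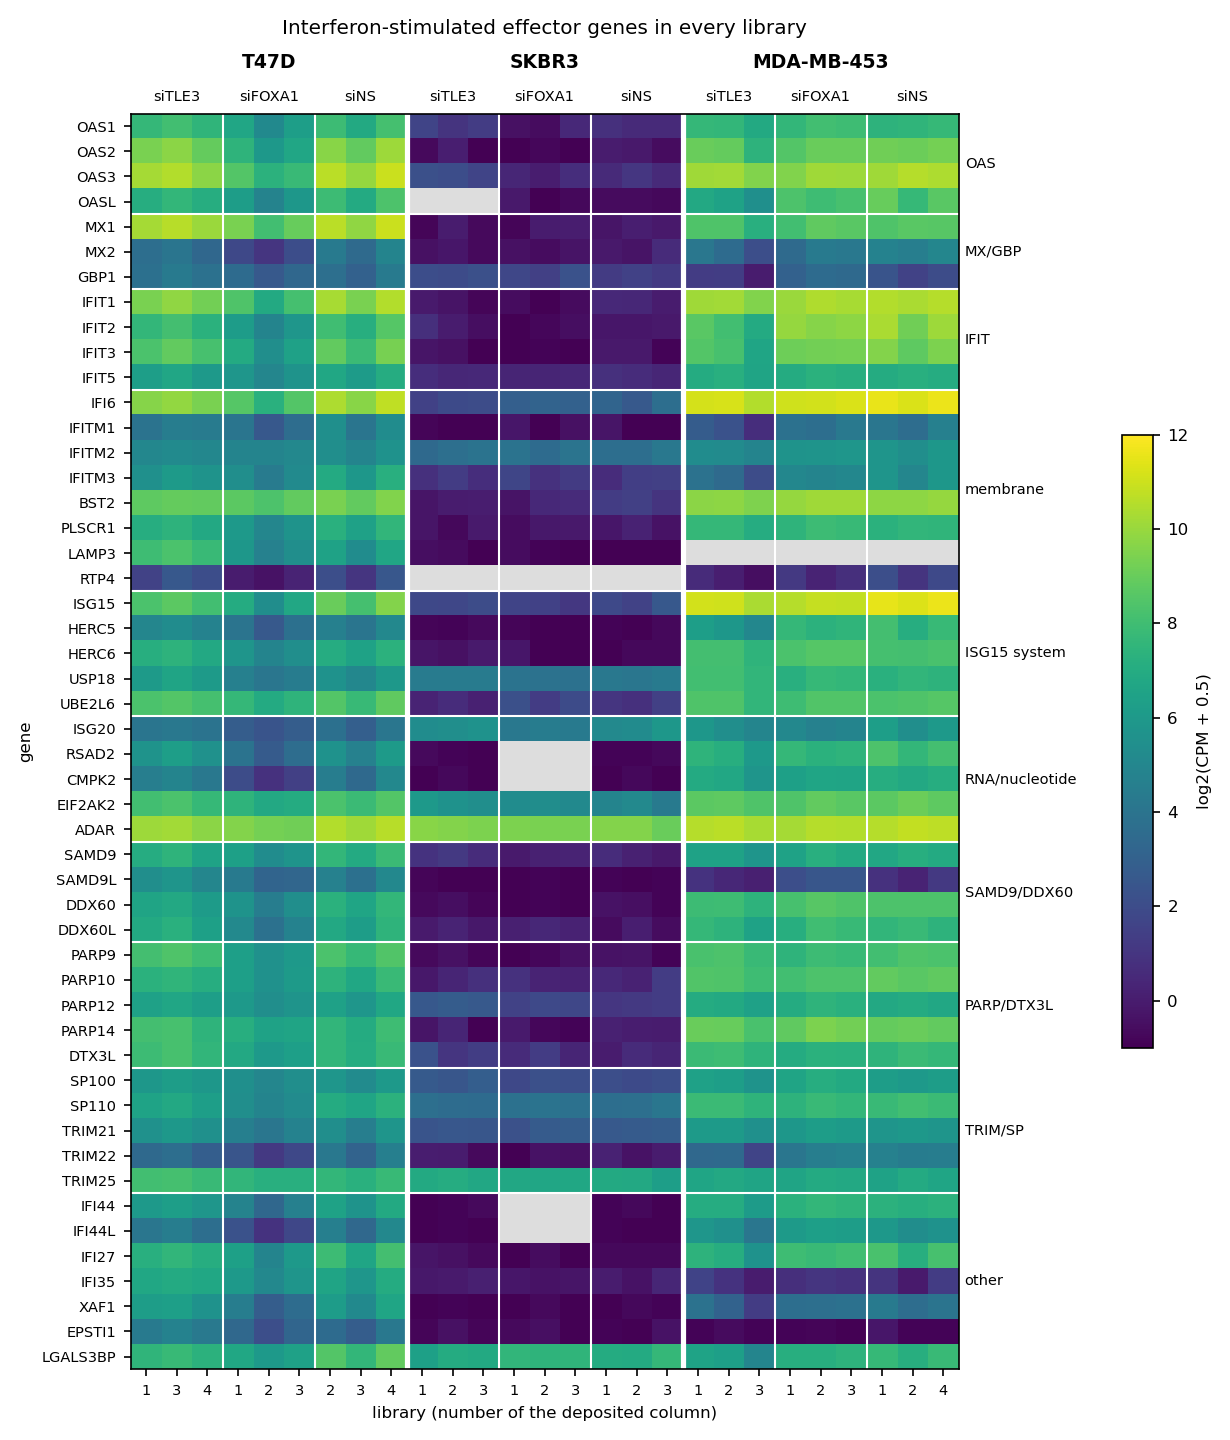
Level of each of the 50 genes (rows) in each of the 27 libraries (columns), colour on the log2 scale of CPM plus 0.5, with gray where a table does not list the gene. SKBR3 columns are dark for most genes, while T47D and MDA-MB-453 columns are bright, and T47D siFOXA1 columns are darker than the other T47D columns.

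Control libraries of 1 line differed among themselves in these genes by more than genes at large. In T47D siNS cells the highest library was a median 2.19 times the lowest over the 49 genes with a mean of at least 10 CPM (range 1.37 to 3.24), against a median of 1.10 over all genes at that level, and 32 of the 49 differed by over 2-fold. The order was shared: siNS 4 was above siNS 2 and siNS 2 above siNS 3 in 49 of the 50 genes. The 50 genes took 1.52%, 0.940% and 1.92% of the reads in siNS 2, 3 and 4. In MDA-MB-453 siNS cells the spread was narrower, with a median ratio of 1.27 against 1.15 over all genes, and the 5 genes that differed by over 2-fold (HERC5, IFI27, IFIT2, IFITM1 and OASL) were all lowest in siNS 2. SKBR3 siNS libraries had a median ratio of 1.51 over 8 genes, against 1.36 over all genes.

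Silenced groups also held a library that stood apart in these genes. In T47D siTLE3 cells, siTLE3 3 was highest for 48 of 48 genes at 10 CPM or more, and siTLE3 4 was lowest for 41. In T47D siFOXA1 cells siFOXA1 2 was lowest for 41 of 42, with a median ratio of highest to lowest of 2.09 (1.15 over all genes). In MDA-MB-453 siTLE3 cells siTLE3 3 was lowest for 40 of 40, with a median ratio of 1.68 and a largest of 4.63 (median 1.10 over all genes). In these 3 groups and in T47D siNS cells the library with the most counted reads was also the highest and the one with the fewest was the lowest, although the T47D siFOXA1 libraries differed little in depth (22033987, 21854466 and 21985225 reads). That order did not hold in the other 5 groups, and the part of depth in the levels was not tested. In MDA-MB-453 siFOXA1 cells, siFOXA1 1 was lowest for 36 of 44 genes (34.2% of all genes at that level). The spread there was narrower, with a median ratio of 1.29 (1.09 over all genes).

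Interferon transcripts were measured in the same libraries. IFNB1, which encodes interferon beta, had 2.01, 2.70 and 1.30 CPM in T47D siTLE3 libraries, 0.875, 0.222 and 0.587 CPM in siFOXA1 libraries and 0.971, 0.951 and 2.62 CPM in siNS libraries. IFNL1, a type III interferon, had 5.70, 8.92 and 6.32 CPM in T47D siTLE3 libraries, 1.44, 0.843 and 2.80 CPM in siFOXA1 libraries and 4.32, 2.503 and 7.47 CPM in siNS libraries. Both had their highest siNS value in T47D siNS 4 and their lowest in siNS 3, as the effector genes did, although the siNS 2 and siNS 3 values of IFNB1 differed little. In MDA-MB-453, IFNL1 had 27.7, 12.4 and 5.78 CPM in siTLE3 libraries, 49.8, 29.2 and 42.2 CPM in siFOXA1 libraries and 87.8, 31.8 and 65.7 CPM in siNS libraries, lowest in the siTLE3 3 library. No interferon ligand passed the filter on low counts in SKBR3.

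In T47D the genes fell together in siFOXA1 cells. Against siNS cells, 47 of the 50 genes were lower in siFOXA1 cells, none was higher and 3 did not pass (52.8% of all genes tested changed, 26% higher and 26.8% lower), with a median log2 fold change of -1.63, against 0.0016 over all genes. The siFOXA1 libraries were all below the siNS libraries for 38 of the 50 (29.7% of all genes tested) and above them for none (30.2%). EPSTI1 (-0.66), GBP1 (-0.60) and TRIM25 (-0.22) did not pass. The 50 genes took 0.588%, 0.318% and 0.461% of reads in siFOXA1 1, 2 and 3. Leaving out any 1 library left 40 to 50 genes called, all lower.

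In T47D siTLE3 cells the genes moved both ways: 5 genes were higher than in siNS cells, 11 were lower and 34 did not pass (51.9% of all genes tested changed, 25.3% higher and 26.6% lower). The median log2 fold change was -0.14, and for 19 of the 50 genes every siTLE3 library lay within the range of the siNS libraries. The siTLE3 libraries were all above the siNS libraries for 4 genes (28.5% of all genes tested) and all below for none (29.8%). The split rested on single control libraries. Without siNS 3, 5 genes were higher and 27 lower; without siNS 4, 14 were higher and 2 lower and the median turned to 0.11; without siNS 2, 10 genes were called, 5 in each direction. The siTLE3 and siFOXA1 comparisons of a line share their siNS libraries. Set directly against siFOXA1 cells, siTLE3 cells of T47D were higher for 48 of 50 genes and lower for none (44.3% of all genes tested differed, 22.5% higher and 21.8% lower), with a median log2 fold change of 1.51, and their libraries did not overlap for 47 (25.8% of all genes tested were higher without overlap). IFITM2 (0.19) and BST2 (0.21) did not pass.

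In MDA-MB-453 siTLE3 cells, the genes that changed were mostly lower. In siTLE3 cells 22 of 48 genes tested were lower than in siNS cells and 1, USP18, was higher (32% of all genes tested changed, 15.7% higher and 16.3% lower). LAMP3 is not listed for MDA-MB-453, and EPSTI1 was too low to be tested. The median log2 fold change was -0.47, and the siTLE3 libraries were all below the siNS libraries for 22 genes (21.4% of all genes tested). Without siTLE3 3, the lowest library, 20 genes were lower and 1 was higher, with a median of -0.22. The 5 genes that varied by over 2-fold between siNS libraries had a median of -1.92 and the other 39 genes with a siNS mean of at least 10 CPM a median of -0.41. In siFOXA1 cells 10 genes were higher and 16 lower than in siNS cells (47.1% of all genes tested changed, 23.4% higher and 23.7% lower), with a median of -0.11. Without siFOXA1 1 the balance turned to 14 higher and 12 lower. Set against siFOXA1 cells, siTLE3 cells were higher for 4 and lower for 24 of 48 genes (53.1% of all genes tested differed, 27% higher and 26.1% lower), with a median of -0.43.

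In SKBR3 most of the genes were too low to be tested. In siTLE3 cells 2 of 23 genes tested were higher and 2 lower than in siNS cells (5.66% of all genes tested changed, 3.67% higher and 1.99% lower). In siFOXA1 cells 1 of 24 was lower and none was higher (19.1% of all genes tested changed, 10.4% higher and 8.75% lower). Leaving out 1 library gave 1 to 3 called genes for siTLE3 and 1 to 8 for siFOXA1, the 8 without SKBR3 siNS 3 (4 higher and 4 lower). Against siFOXA1 cells, siTLE3 cells were higher for 6 and lower for 3 of 23 genes (20% of all genes tested differed, 10.7% higher and 9.24% lower).

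**Figure D3:**
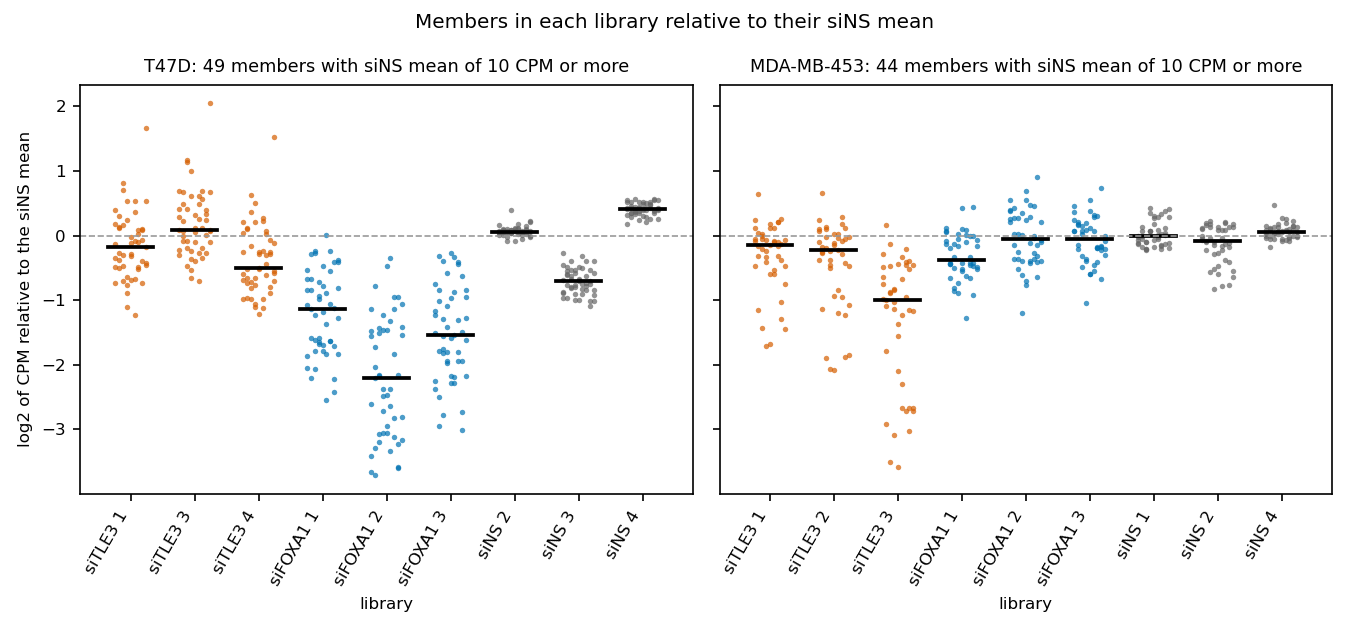
Each gene's level in each library relative to its mean over the siNS libraries of the line (y axis, log2 of the ratio of CPM values plus 0.5), by library (x axis), for the 49 genes of T47D and the 44 genes of MDA-MB-453 with a siNS mean of at least 10 CPM. Points are genes and black bars medians; whole libraries shift together, with T47D siFOXA1 2 lowest in T47D and siTLE3 3 lowest in MDA-MB-453.

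**Figure D4:**
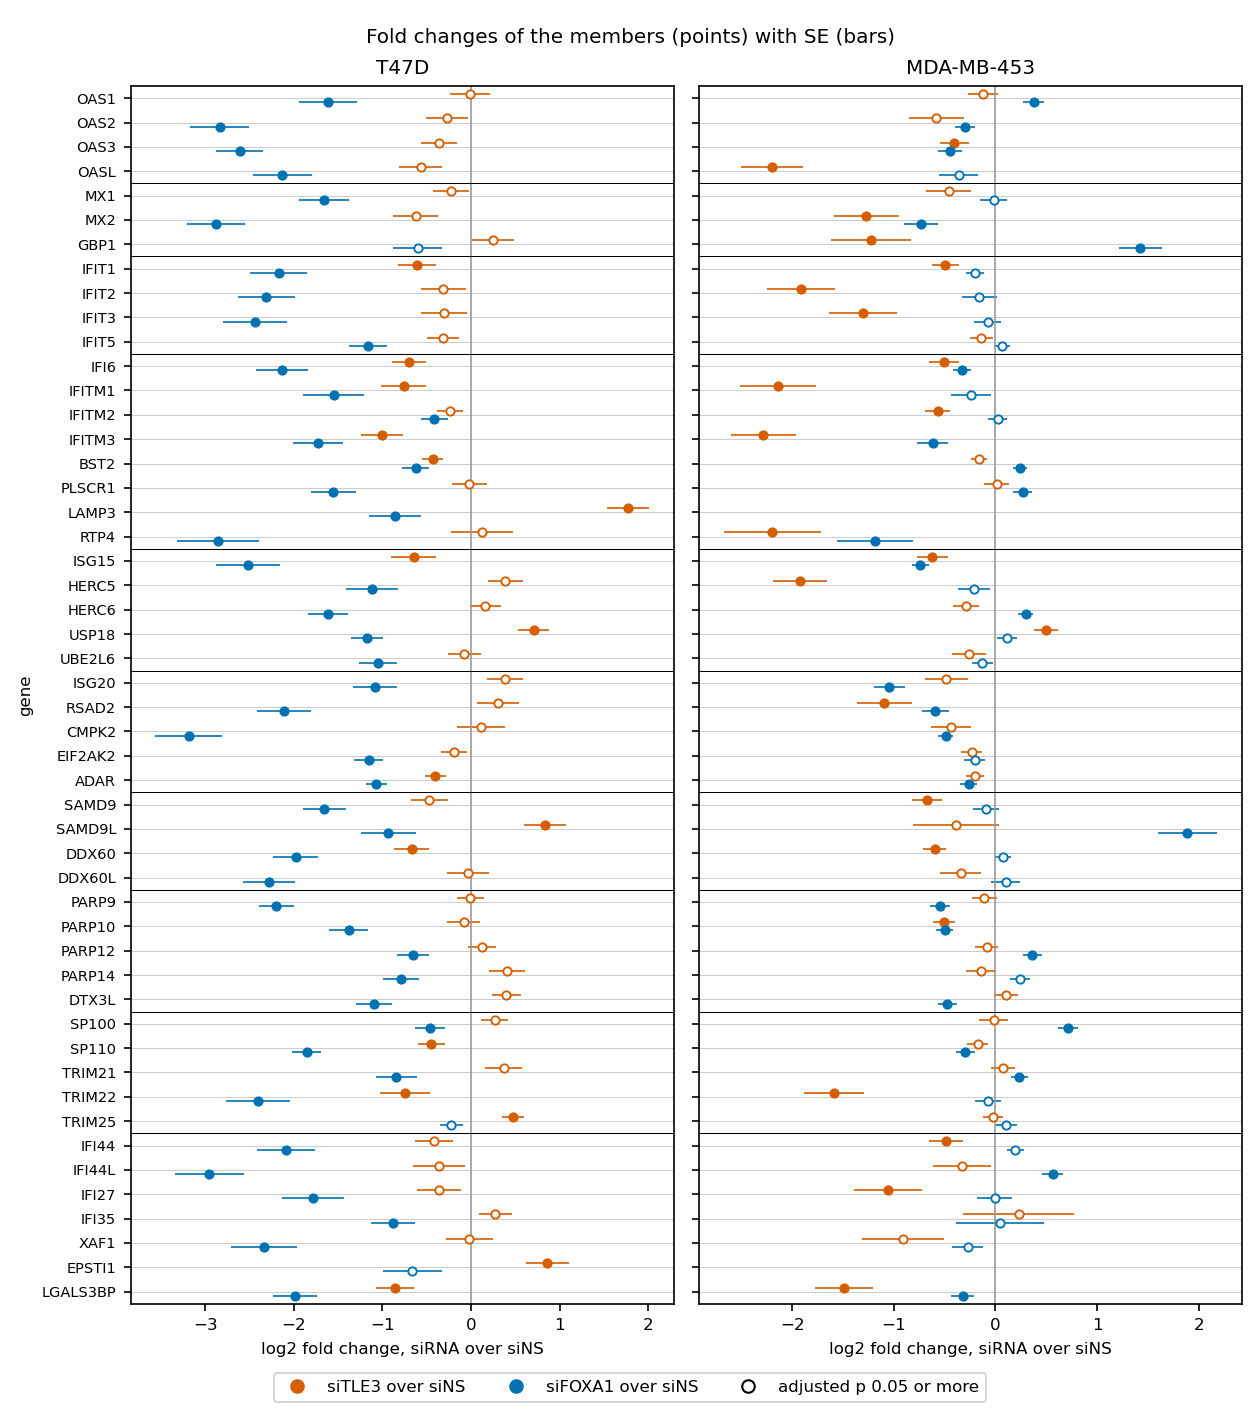
Log2 fold change of each gene over siNS (x axis) with its SE (bars) in T47D and MDA-MB-453, by gene (y axis), siTLE3 in orange and siFOXA1 in blue. Filled points have an adjusted p under 0.05; in T47D 47 of the 50 siFOXA1 points are filled and lie below 0.

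The 50 genes are described next by functional group. Each group holds 3 to 8 genes, and its counts stand against the shares of all genes tested: 25.3% higher and 26.6% lower in T47D siTLE3 cells, 26% and 26.8% in T47D siFOXA1 cells, 15.7% and 16.3% in MDA-MB-453 siTLE3 cells and 23.4% and 23.7% in MDA-MB-453 siFOXA1 cells. With so few genes a group's count is a description.

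OAS1, OAS2 and OAS3 are synthetases that sense double-stranded RNA and make oligoadenylates, the signal that activates RNase L, and OASL is a relative without that activity. All 4 were lower in siFOXA1 than in siNS cells of T47D (26.8% of all genes tested were lower), none passed in T47D siTLE3 cells, and in MDA-MB-453 2 were lower in siTLE3 cells (16.3%). The member with the highest mean level, OAS3 (chr12:113376157-113411054, plus strand, hg19), carries the ISRE-like site printed above 12 bases before its start. OAS3 had 1237, 1432 and 864 CPM in the siTLE3 libraries of T47D, 361, 165 and 222 CPM in the siFOXA1 libraries and 1601, 987 and 1966 CPM in the siNS libraries. Every siFOXA1 library lay below every siNS and every siTLE3 library (log2 fold change -2.61, SE 0.27, adjusted p = 2.46e-06), while siTLE3 and siNS libraries overlapped (log2 fold change -0.36, SE 0.20, adjusted p = 0.146). OAS3 had 1149, 1165 and 730.1 CPM in the siTLE3 libraries of MDA-MB-453, 732, 1123 and 1077 CPM in the siFOXA1 libraries and 1149, 1505 and 1352 CPM in the siNS libraries. The MDA-MB-453 siFOXA1 libraries were all below the siNS libraries (log2 fold change -0.45, SE 0.12, adjusted p = 0.00513). OAS3 was also lower in siTLE3 cells of MDA-MB-453 (log2 fold change -0.41, SE 0.14, adjusted p = 0.0458), a call lost without siTLE3 3, siNS 2 or siNS 4. OAS3 had 4.09, 3.65 and 2.70 CPM in the siTLE3 libraries of SKBR3, 0.830, 0.545 and 1.13 CPM in the siFOXA1 libraries and 0.959, 1.59 and 0.981 CPM in the siNS libraries. SKBR3 siTLE3 libraries were above both other groups at these low levels (against siNS, log2 fold change 1.57, SE 0.33, adjusted p = 0.0284; against siFOXA1, log2 fold change 2.07, SE 0.33, adjusted p = 0.00268), and the call against siNS was lost when any library but siNS 2 was left out.

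OASL was the OAS gene that fell most in MDA-MB-453 siTLE3 cells. OASL had 114, 88.9 and 43.6 CPM in the siTLE3 libraries of MDA-MB-453, 335, 247 and 293 CPM in the siFOXA1 libraries and 505, 212 and 411 CPM in the siNS libraries. All 3 siTLE3 libraries were below all 6 others (log2 fold change -2.19, SE 0.31, adjusted p = 9.68e-05 against siNS). OAS1 went the other way in MDA-MB-453 siFOXA1 cells, where it rose (log2 fold change 0.37, SE 0.099, adjusted p = 0.00441), although its siFOXA1 and siNS libraries overlapped. In SKBR3, 2.66, 1.47 and 1.98 CPM of OAS1 in siTLE3 libraries stood against 0.237, 0.182 and 0.930 CPM in siFOXA1 libraries (log2 fold change 2.15, SE 0.56, adjusted p = 0.0265), a difference lost without siFOXA1 1 or siFOXA1 2. OAS1 and OAS2 lie beside OAS3 on chromosome 12, and reads that fit more than 1 OAS gene could be counted for either or dropped.

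MX1 and MX2 are dynamin-like GTPases that trap viral nucleocapsids, and GBP1 is a guanylate-binding GTPase that also responds to interferon gamma. In T47D siFOXA1 cells MX1 and MX2 fell. MX1 had 1226, 1565 and 1062 CPM in the siTLE3 libraries of T47D, 659.8, 271 and 499.7 CPM in the siFOXA1 libraries and 1611, 918 and 1980.5 CPM in the siNS libraries. Its siFOXA1 libraries were below both other groups (log2 fold change -1.66, SE 0.28, adjusted p = 0.000245). MX2 had 12.3, 16.4 and 9.73 CPM in the siTLE3 libraries of T47D, 2.97, 1.51 and 3.66 CPM in the siFOXA1 libraries and 20.2, 10.97 and 28.3 CPM in the siNS libraries. MX2 was lower in siFOXA1 than in siNS cells in T47D (log2 fold change -2.88, SE 0.33, adjusted p = 6.55e-06) and in MDA-MB-453 (log2 fold change -0.73, SE 0.16, adjusted p = 0.00119). MX1 (chr21:42792231-42831141, plus strand, hg19) did not pass in either MDA-MB-453 comparison with siNS (-0.46 in siTLE3 and -0.02 in siFOXA1 cells). GBP1 had 2.01, 2.05 and 0.506 CPM in the siTLE3 libraries of MDA-MB-453, 7.74, 11.03 and 10.4 CPM in the siFOXA1 libraries and 4.73, 2.48 and 3.57 CPM in the siNS libraries. GBP1 was thus lower in siTLE3 cells (log2 fold change -1.22, SE 0.39, adjusted p = 0.0281) and higher in siFOXA1 cells (log2 fold change 1.42, SE 0.21, adjusted p = 1.8e-05), and the 3 groups did not overlap. The siTLE3 call was lost without siTLE3 3, siNS 1 or siNS 4. Set directly against siFOXA1 cells, siTLE3 cells of MDA-MB-453 were lower in GBP1 (log2 fold change -2.62, SE 0.27, adjusted p = 2.59e-08).

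The IFIT proteins bind viral RNA through tetratricopeptide repeats and block its translation. All 4 measured members (IFIT1, IFIT2, IFIT3 and IFIT5) fell in T47D siFOXA1 cells, and 3 fell in MDA-MB-453 siTLE3 cells. IFIT1 had 674, 929.7 and 606 CPM in the siTLE3 libraries of T47D, 343, 119.5 and 291 CPM in the siFOXA1 libraries and 1243, 669 and 1462 CPM in the siNS libraries. The T47D siFOXA1 libraries lay below the rest (log2 fold change -2.17, SE 0.32, adjusted p = 7.98e-05). In siTLE3 cells IFIT1 was lower than in siNS cells (log2 fold change -0.61, SE 0.21, adjusted p = 0.0264) with overlapping libraries, and that call was lost without siTLE3 1, siTLE3 4, siNS 2 or siNS 4. IFIT1 had 1137, 1161 and 733 CPM in the siTLE3 libraries of MDA-MB-453, 1051, 1379 and 1247 CPM in the siFOXA1 libraries and 1433, 1297 and 1512 CPM in the siNS libraries. IFIT1 fell in MDA-MB-453 siTLE3 cells (log2 fold change -0.49, SE 0.13, adjusted p = 0.0108), a call lost without siNS 4, and did not pass in siFOXA1 cells (-0.20). IFIT2 changed more there, with 408, 271 and 122 CPM in siTLE3 libraries against 1309, 589 and 1106 CPM in siNS libraries (log2 fold change -1.91, SE 0.34, adjusted p = 0.000625). IFIT1 (chr10:91152303-91163745, plus strand), IFIT2 and IFIT3 overlap the coding gene LIPA in hg19, and the strand setting of the counting is not given in the sources used here.

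The membrane group holds IFITM1, IFITM2 and IFITM3, which hinder the entry of viruses, BST2, which tethers budding virions to the cell, the scramblase PLSCR1, the lysosomal LAMP3, the mitochondrial IFI6 and the receptor chaperone RTP4. All 8 fell in T47D siFOXA1 cells, while in T47D siTLE3 cells 4 fell and 1 rose. IFI6 (chr1:27992572-27998729, minus strand, hg19) had the highest mean level. IFI6 had 800.4, 937 and 658 CPM in the siTLE3 libraries of T47D, 375, 154 and 366 CPM in the siFOXA1 libraries and 1353, 816 and 1728 CPM in the siNS libraries. The siFOXA1 libraries were below all others (log2 fold change -2.13, SE 0.30, adjusted p = 4.31e-05). IFI6 was also lower in T47D siTLE3 cells (log2 fold change -0.70, SE 0.19, adjusted p = 0.00788), a call lost without siNS 4. IFI6 had 2303, 2389 and 1436 CPM in the siTLE3 libraries of MDA-MB-453, 2139, 2227 and 2497 CPM in the siFOXA1 libraries and 3028, 2472 and 3136 CPM in the siNS libraries. Both silenced groups of MDA-MB-453 were lower than siNS (siTLE3 -0.50, adjusted p = 0.0184; siFOXA1 -0.33, adjusted p = 0.00367), the siTLE3 call being lost without siNS 4.

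LAMP3 was the gene of the 50 that rose most in T47D siTLE3 cells. LAMP3 had 246, 321 and 223 CPM in the siTLE3 libraries of T47D, 59.3, 26.01 and 42.5 CPM in the siFOXA1 libraries and 88.97, 40.2 and 102 CPM in the siNS libraries. All siTLE3 libraries were above all siNS libraries (log2 fold change 1.77, SE 0.24, adjusted p = 2.48e-05), the call held whichever library was left out, and LAMP3 fell in siFOXA1 cells (log2 fold change -0.86, SE 0.29, adjusted p = 0.025), a call lost without siFOXA1 2, siNS 2 or siNS 4. IFITM3 had 46.3, 66.4 and 49.98 CPM in the siTLE3 libraries of T47D, 41.8, 20.6 and 37.1 CPM in the siFOXA1 libraries and 123, 57.9 and 146 CPM in the siNS libraries. IFITM3 fell in T47D siTLE3 cells more than any other of the 50 (log2 fold change -1.01, SE 0.23, adjusted p = 0.00255) with overlapping libraries. IFITM3 had 14.5, 10.8 and 3.49 CPM in the siTLE3 libraries of MDA-MB-453, 32.4, 28.9 and 31.3 CPM in the siFOXA1 libraries and 53.8, 31.3 and 57.7 CPM in the siNS libraries. In MDA-MB-453 it fell in siTLE3 cells (log2 fold change -2.28, SE 0.32, adjusted p = 0.000107), where no library overlapped siNS, and in siFOXA1 cells (log2 fold change -0.62, SE 0.15, adjusted p = 0.00229). IFITM1 fell in siTLE3 cells as well (log2 fold change -2.14, SE 0.37, adjusted p = 0.000594), with 6.30, 4.41 and 1.11 CPM in siTLE3 libraries against 16.6, 11.9 and 25.1 CPM in siNS libraries. IFITM1, IFITM2 and IFITM3 are near copies, and IFITM1 and IFITM2 overlap in the annotation, so reads could be split between them.

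RTP4 fell in both silenced groups of MDA-MB-453. RTP4 had 1.03, 0.551 and 0.203 CPM in the siTLE3 libraries of MDA-MB-453, 1.75, 0.728 and 1.18 CPM in the siFOXA1 libraries and 3.86, 1.47 and 3.21 CPM in the siNS libraries. The siTLE3 libraries were all below the siNS libraries (log2 fold change -2.20, SE 0.48, adjusted p = 0.00287), while the siFOXA1 call (log2 fold change -1.19, SE 0.38, adjusted p = 0.0146) was lost without siFOXA1 2, siFOXA1 3, siNS 1 or siNS 4. In T47D, RTP4 had 2.46, 5.40 and 3.76 CPM in siTLE3 libraries against 0.481, 0.266 and 0.723 CPM in siFOXA1 libraries (log2 fold change 3.00, SE 0.38, adjusted p = 5.56e-05). In SKBR3 siTLE3 cells BST2 and IFI6 fell at low levels. BST2 had 0.324, 0.507 and 0.527 CPM in the siTLE3 libraries of SKBR3, against 1.97, 2.28 and 1.42 CPM in the siNS libraries. BST2 libraries did not overlap (log2 fold change -2.03, SE 0.40, adjusted p = 0.0224), but the call was lost when any library but siNS 3 was left out. IFI6 had 2.34, 3.34 and 3.63 CPM in the siTLE3 libraries of SKBR3, against 8.74, 5.61 and 12.4 CPM in the siNS libraries. The IFI6 call (log2 fold change -1.503, SE 0.31, adjusted p = 0.0284) was lost when any library but siNS 2 was left out.

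ISG15 is a ubiquitin-like protein that is attached to other proteins through the conjugating enzyme UBE2L6 and the ligase HERC5, with HERC6 as that ligase in mouse, and USP18 removes it and dampens the interferon receptor. All 5 genes of this system fell in T47D siFOXA1 cells. ISG15 (chr1:948803-949920, plus strand, hg19) is the gene whose promoter is printed above. ISG15 had 317, 428 and 266 CPM in the siTLE3 libraries of T47D, 127, 41.5 and 110.0 CPM in the siFOXA1 libraries and 530.4, 284 and 770.5 CPM in the siNS libraries. The siFOXA1 libraries were below all others (log2 fold change -2.52, SE 0.37, adjusted p = 6.35e-05). The siTLE3 libraries overlapped the siNS libraries (log2 fold change -0.65, SE 0.25, adjusted p = 0.0445), and that call was lost without siTLE3 1, siTLE3 4, siNS 2 or siNS 4. ISG15 had 2201, 2135 and 1289 CPM in the siTLE3 libraries of MDA-MB-453, 1510.3, 1838 and 1802 CPM in the siFOXA1 libraries and 2894, 2551 and 3173 CPM in the siNS libraries. ISG15 was lower than in siNS cells of MDA-MB-453 with either siRNA and without overlap (log2 fold change -0.62, SE 0.15, adjusted p = 0.00612 for siTLE3; log2 fold change -0.74, SE 0.086, adjusted p = 9.25e-07 for siFOXA1).

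USP18 moved against the rest of the called genes in MDA-MB-453 siTLE3 cells. USP18 had 266, 269 and 190.0 CPM in the siTLE3 libraries of MDA-MB-453, 148, 206 and 197 CPM in the siFOXA1 libraries and 151, 191 and 168 CPM in the siNS libraries. It was higher in siTLE3 than in siNS cells (log2 fold change 0.50, SE 0.12, adjusted p = 0.00484) although the lowest siTLE3 library lay within the siNS range. USP18 had 68.5, 94.6 and 66.7 CPM in the siTLE3 libraries of T47D, 24.4, 16.6 and 21.8 CPM in the siFOXA1 libraries and 48.3, 32.4 and 60.2 CPM in the siNS libraries. In T47D, USP18 rose in siTLE3 cells (log2 fold change 0.71, SE 0.17, adjusted p = 0.00325) and fell in siFOXA1 cells (-1.17, adjusted p = 0.000129). HERC5 fell in MDA-MB-453 siTLE3 cells, with 77.2, 57.97 and 31.6 CPM in siTLE3 libraries against 279, 135 and 218 CPM in siNS libraries (log2 fold change -1.92, SE 0.27, adjusted p = 9.53e-05). In SKBR3, UBE2L6 had 0.714, 1.06 and 0.659 CPM in siTLE3 libraries against 3.97, 2.00 and 3.38 CPM in siFOXA1 libraries (log2 fold change -1.89, SE 0.36, adjusted p = 0.00628).

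The next group acts on RNA and nucleotides: ADAR edits adenosines in double-stranded RNA, EIF2AK2 is the kinase PKR, ISG20 is an exonuclease, RSAD2 is viperin, and CMPK2 is a mitochondrial nucleotide kinase beside it. All 5 fell in T47D siFOXA1 cells (26.8% of all genes tested were lower) and 4 fell in MDA-MB-453 siFOXA1 cells (23.7% were lower). ADAR had 1079.6, 1175 and 851 CPM in the siTLE3 libraries of T47D, 765, 621 and 584 CPM in the siFOXA1 libraries and 1426, 1137 and 1554 CPM in the siNS libraries. ADAR (chr1:154554538-154600475, minus strand, hg19) was lower in siFOXA1 (log2 fold change -1.07, SE 0.12, adjusted p = 5.74e-06) and in siTLE3 cells (log2 fold change -0.40, SE 0.12, adjusted p = 0.0108), the siTLE3 call being lost without siNS 2 or siNS 4. In MDA-MB-453 siFOXA1 cells ADAR was lower (log2 fold change -0.26, SE 0.084, adjusted p = 0.0144), a call lost without siFOXA1 1. CMPK2 had 23.5, 28.7 and 18.1 CPM in the siTLE3 libraries of T47D, 3.63, 1.33 and 2.26 CPM in the siFOXA1 libraries and 22.1, 10.5 and 32.6 CPM in the siNS libraries. CMPK2 was the gene of the 50 with the largest change in T47D siFOXA1 cells (log2 fold change -3.18, SE 0.38, adjusted p = 1.03e-05). ISG20 had 39.3, 42.6 and 49.6 CPM in the siTLE3 libraries of SKBR3, 18.3, 21.5 and 19.7 CPM in the siFOXA1 libraries and 33.9, 37.7 and 57.96 CPM in the siNS libraries. ISG20 fell in SKBR3 siFOXA1 cells (log2 fold change -1.09, SE 0.20, adjusted p = 0.00719), the 1 call of that comparison, which held whichever library was left out. ISG20 also fell in MDA-MB-453 siFOXA1 cells (log2 fold change -1.04, SE 0.15, adjusted p = 1.22e-05). CMPK2 and RSAD2 overlap in the annotation, so part of their reads could belong to either.

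SAMD9 and SAMD9L restrict poxviruses, and DDX60 and DDX60L are helicase-like proteins. All 4 fell in T47D siFOXA1 cells. DDX60 had 96.4, 116 and 69.6 CPM in the siTLE3 libraries of T47D, 49.8, 22.4 and 42.5 CPM in the siFOXA1 libraries and 155, 101 and 195 CPM in the siNS libraries. DDX60 (chr4:169137444-169239958, minus strand, hg19) was lower in siFOXA1 (log2 fold change -1.98, SE 0.25, adjusted p = 2.01e-05) and in siTLE3 cells (log2 fold change -0.67, SE 0.20, adjusted p = 0.0103), the siTLE3 call being lost without siNS 4. DDX60 had 238, 252 and 166 CPM in the siTLE3 libraries of MDA-MB-453, 299, 392 and 347 CPM in the siFOXA1 libraries and 327, 327 and 334 CPM in the siNS libraries. In MDA-MB-453 it fell in siTLE3 cells (log2 fold change -0.60, SE 0.11, adjusted p = 0.00114) and did not pass in siFOXA1 cells (0.07). SAMD9L had 1.36, 0.852 and 0.608 CPM in the siTLE3 libraries of MDA-MB-453, 3.79, 5.04 and 5.12 CPM in the siFOXA1 libraries and 1.33, 0.735 and 1.71 CPM in the siNS libraries. SAMD9L rose in MDA-MB-453 siFOXA1 cells, all of whose libraries were above the others (log2 fold change 1.89, SE 0.29, adjusted p = 3.05e-05). SAMD9L had 42.5, 54.4 and 30.8 CPM in the siTLE3 libraries of T47D, 19.7, 8.57 and 9.44 CPM in the siFOXA1 libraries and 25.6, 13.4 and 32.6 CPM in the siNS libraries. In T47D it rose in siTLE3 cells (log2 fold change 0.84, SE 0.24, adjusted p = 0.00913), a call lost without siTLE3 3, and fell in siFOXA1 cells (-0.93, adjusted p = 0.021), a call lost without siFOXA1 2, siFOXA1 3, siNS 2 or siNS 4. Each pair is of close relatives, so reads could be shared within it.

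PARP9, PARP10, PARP12 and PARP14 belong to the ADP-ribosyltransferase family, and DTX3L is the ubiquitin ligase that pairs with PARP9. All 5 fell in T47D siFOXA1 cells and none passed in T47D siTLE3 cells. PARP14 had 273, 300.4 and 174 CPM in the siTLE3 libraries of T47D, 142, 89.9 and 97.4 CPM in the siFOXA1 libraries and 188, 126 and 251 CPM in the siNS libraries. PARP14 (chr3:122399465-122449687, plus strand, hg19) was lower in siFOXA1 than in siNS cells (log2 fold change -0.79, SE 0.21, adjusted p = 0.00563). PARP14 had 531, 499.6 and 305 CPM in the siTLE3 libraries of MDA-MB-453, 455, 680.1 and 597 CPM in the siFOXA1 libraries and 483, 518 and 466 CPM in the siNS libraries. It passed in neither MDA-MB-453 comparison with siNS (siTLE3 -0.14, siFOXA1 0.24). The neighbours PARP9 and DTX3L fell in MDA-MB-453 siFOXA1 cells (-0.54 and -0.47) and were higher in siTLE3 than in siFOXA1 cells. DTX3L had 233, 245 and 173 CPM in the siTLE3 libraries of MDA-MB-453, against 126, 155 and 151 CPM in the siFOXA1 libraries. DTX3L libraries did not overlap (log2 fold change 0.60, SE 0.091, adjusted p = 7.89e-06). PARP9 had 313, 330.2 and 222 CPM in the siTLE3 libraries of MDA-MB-453, against 176, 239 and 220.0 CPM in the siFOXA1 libraries. The PARP9 difference passed with overlapping libraries (log2 fold change 0.45, SE 0.11, adjusted p = 0.000979). PARP9 overlaps DTX3L in the annotation, so reads could be counted for either.

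PARP12 rose in SKBR3 siTLE3 cells. PARP12 had 5.45, 6.28 and 5.60 CPM in the siTLE3 libraries of SKBR3, 2.49, 3.18 and 2.89 CPM in the siFOXA1 libraries and 1.60, 1.75 and 1.96 CPM in the siNS libraries. The siTLE3 libraries were above both other groups (log2 fold change 1.72, SE 0.22, adjusted p = 0.00548 against siNS), and the call held whichever library was left out. In MDA-MB-453 siFOXA1 cells PARP12 was higher than in siNS cells (log2 fold change 0.36, SE 0.093, adjusted p = 0.00366), with overlapping libraries.

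TRIM21 is an intracellular antibody receptor, TRIM22 a restriction factor and TRIM25 the ubiquitin ligase that activates the RNA sensor RIG-I, while SP100 and SP110 belong to nuclear bodies. In T47D siFOXA1 cells 4 of the 5 fell, and TRIM25 did not pass. TRIM25 had 271, 288 and 221 CPM in the siTLE3 libraries of T47D, 189, 147 and 149 CPM in the siFOXA1 libraries and 194, 150.3 and 218 CPM in the siNS libraries. TRIM25 (chr17:54965270-54991399, minus strand, hg19) rose in T47D siTLE3 cells, whose libraries were above all siNS libraries (log2 fold change 0.47, SE 0.12, adjusted p = 0.00455). TRIM22 fell in siTLE3 cells of T47D (log2 fold change -0.74, SE 0.28, adjusted p = 0.0414) and of MDA-MB-453 (log2 fold change -1.59, SE 0.29, adjusted p = 0.000939), the T47D call being lost without siTLE3 1, siTLE3 4, siNS 2 or siNS 4. SP100 had 86.4, 78.01 and 49.9 CPM in the siTLE3 libraries of MDA-MB-453, 97.7, 136 and 120.3 CPM in the siFOXA1 libraries and 73.8, 66.1 and 76.1 CPM in the siNS libraries. SP100 rose in MDA-MB-453 siFOXA1 cells, above all libraries of the other groups (log2 fold change 0.71, SE 0.094, adjusted p = 4.85e-06), and did not pass in siTLE3 cells (-0.02). TRIM22 overlaps TRIM5 and OR56B1 in the annotation.

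The remaining genes include the secreted galectin ligand LGALS3BP, the apoptosis factor XAF1, the stromal interaction gene EPSTI1 and IFI27, IFI35, IFI44 and IFI44L, whose functions are less defined. In T47D siFOXA1 cells 6 of these 7 fell. LGALS3BP had 183, 215 and 163 CPM in the siTLE3 libraries of T47D, 105, 65.3 and 87.8 CPM in the siFOXA1 libraries and 362, 194 and 463 CPM in the siNS libraries. LGALS3BP (chr17:76967320-76976191, minus strand, hg19) fell in siFOXA1 (log2 fold change -1.99, SE 0.24, adjusted p = 1.43e-05) and in siTLE3 cells (log2 fold change -0.86, SE 0.21, adjusted p = 0.00378). LGALS3BP had 92.9, 81.4 and 29.4 CPM in the siTLE3 libraries of MDA-MB-453, 142, 144 and 172 CPM in the siFOXA1 libraries and 206, 143 and 224 CPM in the siNS libraries. It fell in MDA-MB-453 siTLE3 cells without overlap (log2 fold change -1.49, SE 0.28, adjusted p = 0.00113), and the siFOXA1 call (log2 fold change -0.32, SE 0.12, adjusted p = 0.0287) was lost without siFOXA1 1, siFOXA1 2, siNS 1 or siNS 4. In SKBR3, LGALS3BP had 82.7, 127 and 119 CPM in siTLE3 libraries against 187, 178 and 179.6 CPM in siFOXA1 libraries (log2 fold change -0.72, SE 0.15, adjusted p = 0.00858), a difference lost without siFOXA1 1. EPSTI1 had 19.8, 26.9 and 18.7 CPM in the siTLE3 libraries of T47D, 10.1, 3.86 and 9.03 CPM in the siFOXA1 libraries and 11.3, 6.66 and 17.98 CPM in the siNS libraries. EPSTI1 rose in T47D siTLE3 cells without overlap (log2 fold change 0.86, SE 0.24, adjusted p = 0.00821), a call lost without siTLE3 3. IFI44L had 4.33, 1.38 and 2.89 CPM in T47D siFOXA1 libraries against 23.5, 10.1 and 32.6 CPM in siNS libraries (log2 fold change -2.95, SE 0.39, adjusted p = 2.88e-05) and rose in MDA-MB-453 siFOXA1 cells (log2 fold change 0.56, SE 0.11, adjusted p = 0.000214).

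Whether the effect of an siRNA differed between the 3 lines was tested with a line-by-siRNA term. For siFOXA1, 36 of 44 genes tested differed between lines (33.8% of all genes tested), among them LGALS3BP (adjusted p = 9.89e-05), DDX60 (0.000121) and OAS3 (0.000169), whose log2 fold changes in T47D were -1.99, -1.98 and -2.61, against -0.32, 0.07 and -0.45 in MDA-MB-453. For siTLE3, 6 of 47 genes tested differed (12.1% of all genes tested): PARP12, HERC5, BST2, OAS3, EIF2AK2 and GBP1. HERC5 had a log2 fold change of 0.39 in T47D siTLE3 cells and -1.92 in MDA-MB-453 siTLE3 cells, and GBP1 one of 0.25 and -1.22. The 3 lines enter this test with SKBR3 levels near the floor for most genes.

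Genes upstream and beside the effectors were read from lists chosen with earlier results of these data known, and are given by counts against siNS. Over all genes tested, 51.9% changed in T47D siTLE3 cells, 52.8% in T47D siFOXA1 cells, 32% in MDA-MB-453 siTLE3 cells and 47.1% in MDA-MB-453 siFOXA1 cells, in near equal shares higher and lower. Of the interferon ligands, 0 rose and 0 fell of 4 tested in T47D siTLE3 cells, 0 rose and 4 fell of 4 tested in T47D siFOXA1 cells, 0 rose and 4 fell of 4 tested in MDA-MB-453 siTLE3 cells and 0 rose and 1 fell of 4 tested in MDA-MB-453 siFOXA1 cells. IFNL1 fell in MDA-MB-453 siTLE3 cells (log2 fold change -1.98, SE 0.41, adjusted p = 0.00199), as did IFNB1 (log2 fold change -1.65, SE 0.38, adjusted p = 0.00425), and IFNL2 fell in T47D siFOXA1 cells (log2 fold change -1.57, SE 0.48, adjusted p = 0.0137). Of the receptors and kinases, 2 rose and 3 fell of 9 tested in T47D siTLE3 cells, 2 rose and 0 fell of 9 tested in T47D siFOXA1 cells, 2 rose and 3 fell of 8 tested in MDA-MB-453 siTLE3 cells and 2 rose and 3 fell of 8 tested in MDA-MB-453 siFOXA1 cells. JAK1, the kinase shared by the type I, II and III receptors, rose in T47D siTLE3 (0.65) and siFOXA1 cells (0.74) and in MDA-MB-453 siTLE3 (0.40) and siFOXA1 cells (0.62), opposite to the effector genes of T47D siFOXA1 cells.

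Of the transcription factors, 5 rose and 1 fell of 11 tested in T47D siTLE3 cells, 2 rose and 5 fell of 11 tested in T47D siFOXA1 cells, 3 rose and 2 fell of 10 tested in MDA-MB-453 siTLE3 cells and 4 rose and 2 fell of 10 tested in MDA-MB-453 siFOXA1 cells. The 6 of 11 that changed in T47D siTLE3 cells are near the 51.9% over all genes. IRF9, the DNA-binding part of the complex that binds ISREs, fell in T47D siFOXA1 cells (log2 fold change -1.16, SE 0.30, adjusted p = 0.00485). IRF2, a repressor and competitor at ISREs, rose in all 6 comparisons with siNS, with log2 fold changes of 1.44 and 1.00 in siTLE3 and siFOXA1 cells of T47D, 1.67 and 1.07 in those of SKBR3 and 0.44 and 0.70 in those of MDA-MB-453 (largest adjusted p 0.0125). It was followed across all comparisons after its values were seen. Of the sensors and adaptors, 2 rose and 2 fell of 13 tested in T47D siTLE3 cells, 1 rose and 8 fell of 12 tested in T47D siFOXA1 cells, 1 rose and 5 fell of 13 tested in MDA-MB-453 siTLE3 cells and 1 rose and 4 fell of 13 tested in MDA-MB-453 siFOXA1 cells. TLR3, the endosomal sensor of double-stranded RNA, fell in T47D siFOXA1 cells (-1.93, adjusted p = 0.00012), and IFIH1, the cytosolic sensor MDA5, fell in MDA-MB-453 siTLE3 cells (-1.13, adjusted p = 7.09e-05) and rose in SKBR3 siTLE3 cells (1.02, adjusted p = 0.0285).

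The same shares of all genes apply to the lists that follow. Of the feedback regulators, 1 rose and 2 fell of 5 tested in T47D siTLE3 cells, 1 rose and 3 fell of 5 tested in T47D siFOXA1 cells, 0 rose and 4 fell of 6 tested in MDA-MB-453 siTLE3 cells and 0 rose and 3 fell of 6 tested in MDA-MB-453 siFOXA1 cells. SOCS2, an inhibitor of cytokine receptor signalling, fell in MDA-MB-453 siFOXA1 cells (log2 fold change -4.02, SE 0.14, adjusted p = 1.28e-13). Of the genes of MHC class I and the immunoproteasome, which present peptides and also respond to interferon, 0 rose and 1 fell of 13 tested in T47D siTLE3 cells, 0 rose and 10 fell of 13 tested in T47D siFOXA1 cells, 0 rose and 10 fell of 13 tested in MDA-MB-453 siTLE3 cells and 1 rose and 7 fell of 13 tested in MDA-MB-453 siFOXA1 cells. PSMB9, an immunoproteasome subunit, fell in T47D siFOXA1 cells (log2 fold change -2.17, SE 0.26, adjusted p = 1.26e-05), and HLA-B fell in MDA-MB-453 siTLE3 cells (log2 fold change -1.44, SE 0.32, adjusted p = 0.00336). Of the targets of interferon gamma, 0 rose and 2 fell of 9 tested in T47D siTLE3 cells, 1 rose and 2 fell of 7 tested in T47D siFOXA1 cells, 0 rose and 3 fell of 4 tested in MDA-MB-453 siTLE3 cells and 2 rose and 0 fell of 6 tested in MDA-MB-453 siFOXA1 cells. Of the NF-kB targets, 10 rose and 0 fell of 10 tested in T47D siTLE3 cells, 1 rose and 2 fell of 7 tested in T47D siFOXA1 cells, 0 rose and 3 fell of 7 tested in MDA-MB-453 siTLE3 cells and 1 rose and 2 fell of 7 tested in MDA-MB-453 siFOXA1 cells. In T47D siTLE3 cells, where 25.3% of all genes tested were higher, these included CCL20 (2.17) and CXCL1 (2.05), chemokines at 1.06 and 1.14 CPM in siTLE3 cells against 0.231 and 0.268 CPM in siNS cells. In SKBR3, where 5.66% of all genes tested changed in siTLE3 cells and 19.1% in siFOXA1 cells, the ligands could not be tested. Of the other lists there, 2 rose and 0 fell of 9 receptors and kinases tested in siTLE3 cells and 0 and 2 of 9 in siFOXA1 cells. In turn, 2 rose and 0 fell of 9 transcription factors tested in siTLE3 cells and 2 and 0 of 10 in siFOXA1 cells, while 1 rose and 0 fell of 10 sensors and adaptors tested in siTLE3 cells and 2 and 3 of 10 in siFOXA1 cells. Among the rest, 0 rose and 0 fell of 6 feedback regulators tested in siTLE3 cells and 0 and 4 of 6 in siFOXA1 cells, and 1 rose and 0 fell of 7 NF-kB targets tested in siTLE3 cells and 1 and 0 of 7 in siFOXA1 cells. None of the 4 targets of interferon gamma tested passed with either siRNA. Of the MHC class I list none passed in siTLE3 cells, while 1 rose and 1 fell in siFOXA1 cells.

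Fold changes were set beside the promoter matches as a description. The share of all genes tested that fell was 26.8% in T47D siFOXA1, 16.3% in MDA-MB-453 siTLE3, 26.6% in T47D siTLE3 and 23.7% in MDA-MB-453 siFOXA1 cells, and the share that rose 26%, 15.7%, 25.3% and 23.4% in that order. In T47D siFOXA1 cells 28 of the 30 genes with ISRE-like letters fell (median log2 fold change -1.69), and 10 of the 11 without them fell (median -1.07). In MDA-MB-453 siTLE3 cells 16 of 29 genes with the letters fell and none rose (median -0.49), while none of the 11 without them passed (median -0.20). In T47D siTLE3 cells 1 rose and 8 fell of 30 with the letters (median -0.26), and 2 rose and 2 fell of 11 without them (median 0.11). In MDA-MB-453 siFOXA1 cells 6 rose and 10 fell of 29 with the letters (median -0.09), and 4 rose and 3 fell of 11 without them (median 0.04). The forkhead letters were in the windows of CMPK2, SAMD9L and SP100, a share near that of all windows (5.26% against 3.42%). All of these fell in T47D siFOXA1 cells (-3.18, -0.93 and -0.46 on the log2 scale), while in MDA-MB-453 siFOXA1 cells CMPK2 fell (-0.49) and SAMD9L (1.89) and SP100 (0.71) rose.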

How the data were processed

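Per the labels, RNA was isolated 48 h after transfection. The tools STAR 2.5, HTSeq 0.6.1 and DESeq2 and the build hg19 are those the submitters' processing notes name. The deposited read counts per gene, unnormalised, were read from 36 columns of 6 tables, each holding a silenced group and the siNS group of its line; 72 other value columns were not read. A gene without a read in both of the first 2 siRNA columns of a table is not in that table. Columns of 3 groups carry other numbers than the labels, so libraries are named by column number and group. Coordinates of genes are those of the tables (hg19); promoter windows are from RefSeq (GRCh38.p14).

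CPM values are counts divided by total counts times the TMM factor over 27 libraries. Fold changes, p-values and adjusted p-values come from edgeR 4.0.16 (R 4.3.3, limma 3.58.1): filterByExpr, TMM, quasi-likelihood test, 2-sided, Benjamini-Hochberg adjustment over all genes tested, threshold 0.05. SE is the absolute log2 fold change divided by the square root of F. Each comparison used the 6 libraries of its groups, and the line-by-siRNA test 18. Comparisons of siTLE3 with siFOXA1 used genes listed in both tables. Tests were tried on simulated counts first. Alternatives were relative log expression (RLE) scaling, no filter, DESeq2 1.42.0, 1 fit per line, a replicate block and leaving out each library. Figures used Python 3.11.15, numpy 2.4.6 and matplotlib 3.10.9, with 0.5 CPM added before logarithms.

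The 50 genes and the lists were chosen with earlier results of these data known. Library values are given for the member of each functional group with the highest mean level, the 3 called members with the largest change per comparison and up to 3 called members that moved against most others; upstream lists name up to 3 called genes, and 1 that the rule names is not reported here. Other members named were chosen after their values were seen. Same-numbered SKBR3 siTLE3 and siFOXA1 libraries correlated weakly in their deviations (0.285, 0.159 and 0.113). The siTLE3 library of number 3 correlated better with a siFOXA1 library of another number. The data thus do not settle whether the numbers pair these libraries. A block by number, fitted as an alternative, left 9 called genes, as without it.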

Additional observations from a re-analysis of the deposited data

Results flagged for a closer look

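The effect of siFOXA1 differed between the 3 lines for 36 of 44 genes tested, by edgeR's line-by-siRNA term (adjusted p under 0.05), against 33.8% of all genes tested. Among the genes given by library, the adjusted p of that difference was 9.89e-05 for LGALS3BP, 0.000121 for DDX60, 0.000169 for OAS3, 0.00066 for SAMD9L, 0.00108 for ADAR, 0.00113 for IFI6 and 0.00157 for IFIT1. It was 0.00223 for SP100, 0.00249 for MX2, 0.00316 for GBP1, 0.00699 for MX1, 0.00795 for ISG15 and 0.0173 for PARP14. GBP1 and SAMD9L had log2 fold changes of 1.42 and 1.89 in MDA-MB-453 siFOXA1 cells and of -0.60 and -0.93 in T47D siFOXA1 cells.

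The effect of siTLE3 differed between lines for 6 of 47 genes tested, a share near the 12.1% of all genes tested. The adjusted p was 0.00217 for PARP12, 0.0031 for HERC5, 0.00349 for BST2, 0.0131 for OAS3, 0.024 for EIF2AK2 and 0.0342 for GBP1. PARP12 and OAS3 had log2 fold changes of 1.72 and 1.57 in SKBR3 siTLE3 cells, where siNS levels were low. No group holds more than 3 libraries, so single outlying libraries were not tested for.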

How the results depend on the processing

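The direction of single genes was followed for the genes the naming rule chose (146 gene and comparison pairs, fewer for fits of a whole line, a block or a pair left out), and none of those called changed sign. The balance of T47D siTLE3 calls did turn without T47D siNS 4, to 14 higher and 2 lower (median log2 fold change 0.11), against 5 higher and 11 lower (median -0.14) with all libraries, and that of MDA-MB-453 siFOXA1 calls without siFOXA1 1, to 14 higher and 12 lower against 10 and 16. Of 1508 values of single genes under the alternatives, 1393 kept their side of the threshold, 79 lost it and 36 gained it. Without the filter on low counts, 37 genes were called in T47D siTLE3 cells and 2 in SKBR3 siFOXA1 cells. With DESeq2, 6 were called in T47D siTLE3, 7 in SKBR3 siTLE3, 2 in SKBR3 siFOXA1 and 15 in MDA-MB-453 siTLE3 cells against siNS, 17 in MDA-MB-453 siTLE3 against siFOXA1 cells, and 10 for siTLE3 between lines. With all 9 libraries of a line in 1 fit, 7 were called in SKBR3 siTLE3, 2 in SKBR3 siFOXA1 and 17 in MDA-MB-453 siFOXA1 cells. The causes were not tested.

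Leaving out 1 library gave 10 to 32 called genes in T47D siTLE3, 40 to 50 in T47D siFOXA1, 1 to 3 in SKBR3 siTLE3, 1 to 8 in SKBR3 siFOXA1, 17 to 29 in MDA-MB-453 siTLE3 and 22 to 36 in MDA-MB-453 siFOXA1 cells against siNS. Between siTLE3 and siFOXA1 cells it gave 46 to 50 in T47D, 6 to 12 in SKBR3 and 25 to 34 in MDA-MB-453. Between siNS cells it gave 49 for T47D against SKBR3, 30 to 40 for T47D against MDA-MB-453 and 42 to 46 for SKBR3 against MDA-MB-453. For the difference between lines it gave 5 to 8 (siTLE3) and 32 to 38 (siFOXA1). A fit that leaves out 1 library assumes that the remaining ones of its group vary like the other group.

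Pairs of libraries were also left out, those of T47D and MDA-MB-453 chosen after seeing the data. Without T47D siNS 3 and siFOXA1 2, 49 genes were lower in siFOXA1 cells, and without T47D siTLE3 4 and siFOXA1 2, 47 were higher in siTLE3 than in siFOXA1 cells. Without MDA-MB-453 siTLE3 3 and siNS 2, 3 were higher and 25 lower in siTLE3 cells. Without SKBR3 siTLE3 1 and siNS 3, 8 were called in siTLE3 cells.

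A replicate block gave 9 called genes (6 higher, 3 lower) in SKBR3 siTLE3 and 1 in SKBR3 siFOXA1 cells against siNS, 9 between these siRNAs in SKBR3 and 33 in MDA-MB-453. In SKBR3 against siNS, the correlations of same-numbered libraries were 0.719, -0.365 and 0.804 for siTLE3 and 0.262, -0.22 and 0.061 for siFOXA1, so not every pair deviated together. Numbers 1 and 3 correlated best with their own number, a hint from the data and not the design. MDA-MB-453 siTLE3 and siFOXA1 libraries share a number only (correlations -0.05, 0.049 and -0.089). No paired analysis was possible for T47D and for MDA-MB-453 against siNS because their columns carry other numbers than the labels. SKBR3 levels limit what depth can show there: 26 or 27 of the genes were not listed or too low to be tested.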
